A study of Danio rerio with 11 samples.

Results

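DNA methylation in vertebrates is the addition of a methyl group to cytosine, mostly where a cytosine precedes a guanine (a CpG). The mark is laid down and copied by DNA methyltransferases, it covers most CpGs of the zebrafish genome, and it is known for its absence from active promoters and its presence over repeats and transcribed gene bodies. Sperm carries a highly methylated genome into the fertilized egg. MBD-seq pulls methylated DNA out of the genome with a protein domain that binds methyl-CpG, and a peak of its reads marks a place where many methylated CpGs lie close together. The number of peaks in a stretch of chromosome depends on how many CpGs it holds as well as on how many of them are methylated.

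The regions described here are stretches of the Zv9 zebrafish genome in which sperm peaks were packed most closely. They are fixed windows of 50 kb, starting from position 0 of each chromosome, and were selected on the sperm peak list as all windows that held 9 or more sperm peaks by peak centre. Chromosomes 4 and 22 were left out by the rule. Of 25060 windows on the other 23 chromosomes, 1175 were dense in this sense (4.69%), and they are called sperm-dense windows below. They spanned 58.75 Mb of the 1253 Mb covered by the lists and held 12090 of 84874 sperm peaks on these chromosomes (14.2%). Because the sperm counts chose the windows, these counts, the positions of the windows and their runs are a description, and only the other 8 lists give values that the choice did not use.

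Each list was 1 condition of Tübingen/AB fish and came without replicates. The conditions were sperm, one-cell embryos, embryos at the midblastula transition (mbt), embryos 3 days after fertilization (3dpf), 3dpf embryos to which 400 µM methotrexate was applied at the one-cell stage (MTX-3dpf), and eye, brain, heart and liver of females. Methotrexate blocks dihydrofolate reductase and thereby the folate cycle that feeds the methyl donor S-adenosyl methionine. All samples other than MTX-3dpf were untreated, embryos were whole and of no stated sex, and animals were pooled. The females were adult, and eye, brain, heart and liver were taken from the same animals. The single brain list pools lanes 4 and 5. Eye, heart and liver were sequenced in lane 4 against 1 methylation-poor brain library, and sperm, one-cell and mbt in lane 5 against another, so these lists are not independent of each other. Both 3-day lists came from a further lane, each with a control library of its own, so lane, control and class cannot be told apart, and neither can lane, control and stage between the early and the 3-day embryos. On the chromosomes used, the one-cell list held 159112 peaks, mbt 109016, MTX-3dpf 81282, 3dpf 89980, eye 39716, brain 67776, heart 43542 and liver 43582. The lists carry no read depth, and read totals were not used here, so intervals below cover counting error of peaks only.

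The median window held 3 sperm peaks, and 2532 windows held none. The threshold of 9 lay at 2.66 times the mean of 3.39 peaks per window. Just outside it were 815 windows with 8 sperm peaks and just inside it 498 windows with 9. At the upper end, 27 windows held 15 or more sperm peaks, with a highest count of 23.

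The sperm-dense windows were rich in peaks in every other list. One-cell embryos had on average 13.3 peaks in a sperm-dense window and 6.01 in any other window, a ratio of 2.21. In mbt the means were 11.1 and 4.02 peaks, a ratio of 2.76. In MTX-3dpf they were 9.78 and 2.92 peaks, and in 3dpf 10.7 and 3.24 peaks, with ratios of 3.35 and 3.29. The early embryo lists thus had lower ratios than both 3-day lists. The ratio of sperm itself, 3.38, was set by the choice of windows.

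The ratios of the 4 adult tissues ran from 3.27 to 3.51. Eye had 4.98 peaks per sperm-dense window and 1.42 per other window, a ratio of 3.51. Brain had 7.99 and 2.45 peaks, a ratio of 3.27. Heart had 5.40 and 1.56 peaks, and liver 5.43 and 1.56 peaks, with ratios of 3.47 and 3.48. The median ratio over the 8 other lists was 3.32. The log2 ratio averaged 1.65 ± 0.23 (SD, n = 8 lists) and lay above 0 in 8 of 8 lists (two-sided exact sign-flip permutation test, p = 0.00781, the smallest p that 8 lists can give). The test takes the lists as independent, which they are not. Over all windows, counts in these lists also followed those of sperm (Spearman's rho 0.74 in eye to 0.88 in 3dpf), so ratios above 1 were largely given. The p is therefore no more than a description.

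As shares of a list, the windows held 9.82% of the one-cell peaks (95% Wilson interval 9.67 to 9.97%), 11.96% of the mbt peaks (11.8 to 12.2%), 14.1% of the MTX-3dpf peaks and 13.9% of the 3dpf peaks. The tissues had 14.7% of the peaks of eye (14.4 to 15.1%), 13.9% of brain, 14.6% of heart and 14.6% of liver there. To set lists side by side, counts were also scaled to the length of the sperm list. The scaled median per sperm-dense window was 6.93 in one-cell embryos, 8.56 in mbt, 10.4 in MTX-3dpf and 9.43 in 3dpf, and for the tissues it was 10.7 (eye), 10.02 (brain), 9.75 (heart) and 9.74 (liver). The coefficient of variation over the windows was highest in the short tissue lists, at 44.4% in eye, 43.2% in heart and 42.5% in liver. It was 33.1% in brain, 21.9% in one-cell embryos and 21.3% in mbt. Eye, heart and liver also had the lowest mean counts per sperm-dense window, at 4.98, 5.40 and 5.43 peaks. Counting alone gives low counts a higher coefficient, so these values do not show that windows differed more in tissues.

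**Figure D1:**
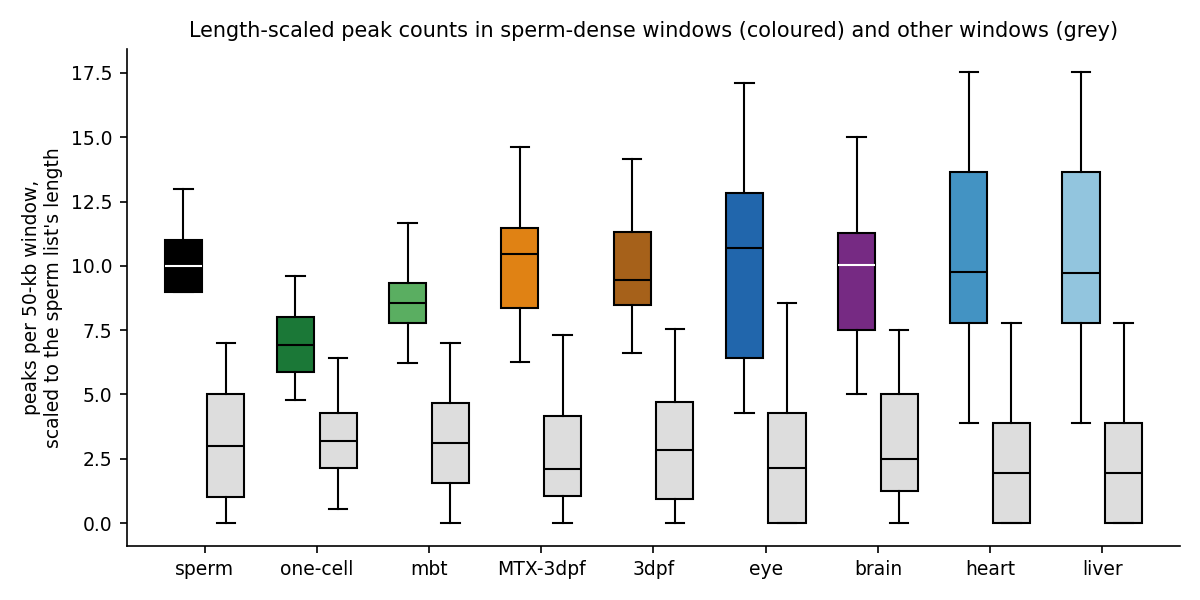
Peaks per 50-kb window, scaled to the length of the sperm list, in the 1175 sperm-dense windows (coloured) and in the other windows (grey), for each list. Boxes span the quartiles, the line is the median, and whiskers reach the 5th and 95th percentiles. The coloured medians lie between 6.93 in one-cell embryos and 10.7 in eye, and the grey medians are lower in every list.

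List length moved with the low values of the early embryos. When every list was cut to its 39716 best-scoring peaks, the length of the eye list, with the windows kept, the one-cell ratio became 3.46, that of mbt 3.59, that of MTX-3dpf 3.68 and that of 3dpf 3.75. Among the tissues, eye had a ratio of 3.51, brain 3.52, heart 3.46 and liver 3.47. At equal length, the one-cell list, with the lowest ratio at its full length, was level with heart. In one-cell embryos the peaks in the sperm-dense windows also stood higher within their list, at a median score percentile of 63.5 inside the windows and 48.6 outside, whereas in eye these percentiles were 50.8 and 49.9.

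**Figure D2:**
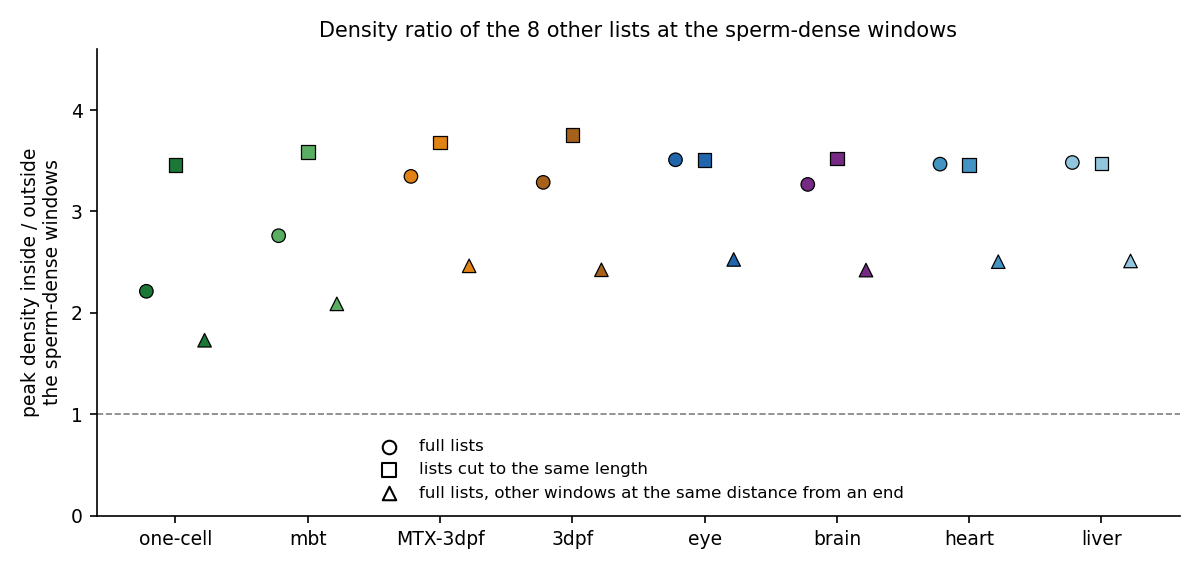
Peak density inside over outside the sperm-dense windows for the 8 other lists, with full lists (circles), with lists cut to equal length by score (squares), and with the outside density taken at the same distance from a chromosome end (triangles). The dashed line marks equal density. All 24 points lie above it. The circles of one-cell embryos and mbt, at 2.21 and 2.76, are the lowest circles. The one-cell square, at 3.46, is level with heart, and the mbt square, at 3.59, is above those of the 4 tissues.

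A window was called dense in another list when its share of that list reached the share that 9 peaks are of the sperm list, which took 17 peaks in one-cell embryos and 5 in eye. Of the 1175 sperm-dense windows, 149 were dense in one-cell embryos (12.7%), against 0.762% of all windows. In mbt 470 were dense (40%, against 2.4% of all windows). The later embryos had more of them, with 782 in MTX-3dpf (66.6%, against 5.26%) and 768 in 3dpf (65.4%, against 4.6%). In eye 650 were dense (55.3%, against 5.95%) and in brain 643 (54.7%, against 3.77%). In heart 750 were dense (63.8%, against 7.41%) and in liver 747 (63.6%, against 7.58%). The order of the tissues changed with the minimum, since counts are whole peaks. At a minimum of 8 sperm peaks the share was 66.5% in eye and 54.3% in heart. At a minimum of 10 it was 64.8% in eye and 55.5% in heart. The shares of all windows at these 2 minimums were not computed, so the changes cannot be read as particular to the sperm-dense windows. With lists of the same length, 678 windows were dense in one-cell embryos (57.7%, against 6.51% of all windows), so the low count at full length did not hold there.

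Density recurred across lists in a graded way. There were 439 sperm-dense windows that were dense in at least 6 of the 8 other lists (37.4%, against 1.94% of all windows). In all 8 other lists 62 were dense (5.28%, against 0.255% of all windows, or 62 of the 64 such windows). At the other end, 104 windows were dense in none of the 8 (8.85%, against 88.4% of all windows). Of the 1175 windows, 1109 lay at or above the mean count of every other list, and a window below the mean in 6 or more lists occurred 2 times. For neither count was the share of all windows computed, so neither can be read as particular to the sperm-dense windows. List by list, 0.17% (brain) to 3.23% (eye) of the sperm-dense windows lay below the mean. Of all windows, 54.8% (heart, liver) to 62.6% (MTX-3dpf) did.

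The counts in the other lists climbed with the sperm count. Windows with 9 sperm peaks had on average 9.97 peaks in mbt, 9.33 in 3dpf and 4.29 in eye. Windows with 12 to 14 sperm peaks had 13.3, 12.9 and 6.21 peaks in these lists. The 27 windows with 15 or more had 16.5, 20.2 and 9.96 peaks, which is 4.11, 6.21 and 7.03 times the mean of the windows outside. Windows just below the threshold, with 8 sperm peaks, had 9.15, 8.22 and 3.79 peaks, so no step separated them from those with 9.

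The adult tissues and the untreated embryo stages were compared by the log2 density ratio. It averaged 1.78 ± 0.05 in the adult tissues (SD, n = 4) and 1.44 ± 0.29 in the embryo stages (SD, n = 3), an embryo minus adult difference of −0.34 (two-sided exact permutation test, p = 0.114). With 3 against 4 lists no p below 0.0571 can occur, so 0.05 is out of reach. The test takes the lists as independent, although the tissues came from the same females. With lists of the same length the difference was 0.04, of the opposite sign. Window by window, the length-scaled counts of every adult tissue exceeded those of every untreated embryo stage in 292 sperm-dense windows (24.9%, against 13.7% of all windows), and lay below them in 75 (6.38%, against 16.7% of all windows). The first share was 47.7% without 3dpf and 41.2% without brain, and the second was 11.9% without one-cell embryos and 11.9% without brain. Leaving out a list makes either pattern easier to meet, and these shares were not computed over all windows. They can therefore not be read as particular to the sperm-dense windows. With lists of the same length every adult tissue was above in 7.06% of the sperm-dense windows, against 6.29% of all windows, and below in 10.98%, against 4.53% of all windows, so the pattern with the higher share in sperm-dense windows was then the opposite one.

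Not only the density but many of the individual peaks recurred. Of the 12090 sperm peaks in the windows, 78.1% were overlapped by a one-cell peak and 85.7% by an mbt peak. The 3-day lists overlapped 73.1% in MTX-3dpf and 80.1% in 3dpf. Eye peaks overlapped 42.7% of them, brain peaks 67.1%, heart peaks 46.8% and liver peaks 46.7%. The windows held only 5848 eye, 9385 brain, 6345 heart and 6375 liver peaks, fewer than the sperm peaks. The tissue shares are therefore limited by list length and do not measure how many sperm peaks were lost. Of the sperm peaks outside the windows, one-cell peaks overlapped 82.2%, mbt peaks 86.7%, MTX-3dpf peaks 70.8% and 3dpf peaks 77.6%. The tissues overlapped 39.9% (eye), 64.1% (brain), 43.96% (heart) and 44.1% (liver) of these. The difference between sperm peaks inside and outside the windows was thus 4.12 percentage points or less in every list.

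In all 8 other lists 3399 of the sperm peaks in the windows were found (28.1%, 95% Wilson interval 27.3 to 28.9%), and outside the windows 27.5% were (27.2 to 27.9%). The share inside cannot exceed the 42.7% overlapped by the short eye list. In none of them 262 were found (2.17%, 1.92 to 2.44%), and 1.97% outside (1.87 to 2.07%). The widely shared peaks had a median score percentile of 81.8 within the sperm list and the unshared ones of 11.7. A sperm-dense window held a median of 3 sperm peaks found in all 8 other lists, and 54 windows held none.

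Seen from the other lists, peaks in the windows overlapped a sperm peak more often than peaks elsewhere. In one-cell embryos 60.4% of the peaks inside did (59.7 to 61.2%) and 41.7% of those outside (41.4 to 41.95%). In mbt the shares were 79.4% inside and 65.7% outside, and in 3dpf 77.3% and 72.9%. In brain they were 86.5% inside and 80.0% outside (79.6 to 80.3%), and in eye 88.3% and 85.7%. This direction rests partly on the rule, since windows were kept for having many sperm peaks to overlap.

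Sperm-dense windows occurred on all 23 chromosomes, from 19 on chromosome 24 to 89 on chromosome 20, with a median of 46. Relative to chromosome length, chromosome 20 was densest (7.95% of its windows), followed by chromosome 15 (7.27%) and chromosome 17 (6.94%), and chromosome 24 was the sparsest (2.16%), 3.68 times below chromosome 20. On each chromosome and in each of the 8 other lists the peak density inside the windows exceeded that outside, in 184 of 184 ratios, from 1.76 in one-cell embryos on chromosome 25 to 4.47 in liver on chromosome 1. Chromosome 25 had the lowest ratio in 8 of 8 lists, and chromosomes 1 and 7 had the highest in the tissues. In one-cell embryos the highest ratio was 2.40, on chromosome 17, and in mbt 3.10, on chromosome 3.

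The windows were concentrated towards the chromosome ends. Within 5 Mb of an end lay 623 of them (53.0%), against 18.4% of all windows, and within 1 Mb 124 (10.6%, against 3.69%). With each chromosome divided into 10 equal parts, 14.01% of the windows in the first part and 14.2% in the last were sperm-dense, whereas 0.599% were in the sixth. The share near ends exceeded that of all windows on 23 of 23 chromosomes, by most on chromosome 17 (76.0%, against 18.5% of its windows) and by least on chromosome 14 (19.4%, against 18.6%). Other lists followed the same course along the chromosome, and in eye the length-scaled mean was 5.62 peaks per window in the first part, 1.89 in the sixth and 5.82 in the last.

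**Figure D3:**
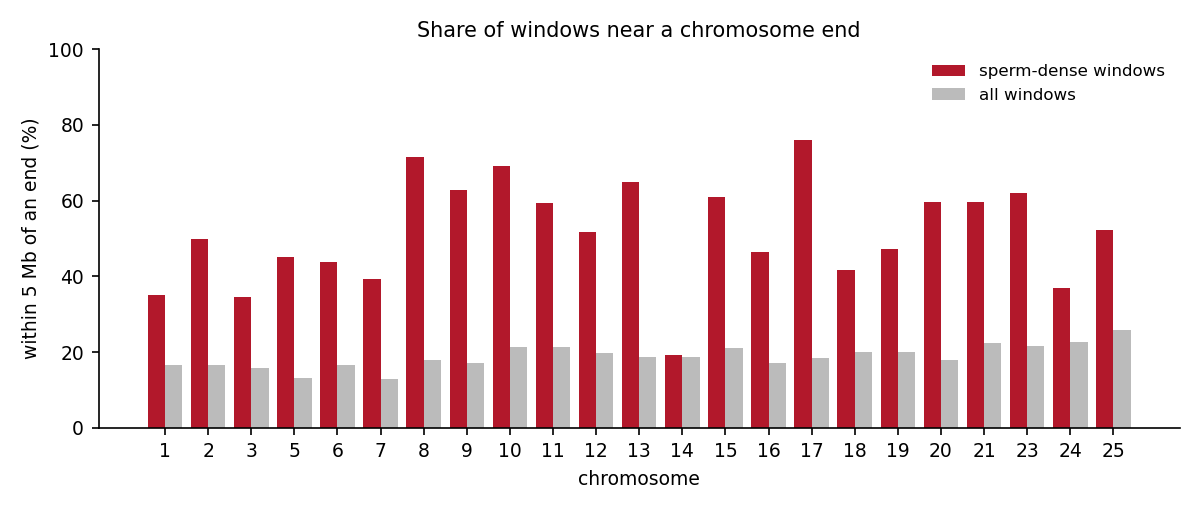
Share of windows within 5 Mb of a chromosome end, among the sperm-dense windows (red) and among all windows (grey), by chromosome. The red bar exceeds the grey one on all 23 chromosomes, from 76.0% against 18.5% on chromosome 17 to 19.4% against 18.6% on chromosome 14.

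Nearness to an end accompanied part of the density ratio. With the outside density taken from windows at the same distance from an end, in classes of 1 Mb, the ratio was 1.73 in one-cell embryos, 2.09 in mbt, 2.46 in MTX-3dpf and 2.43 in 3dpf. For eye it was 2.53, for brain 2.42, for heart 2.51 and for liver 2.51. Ratios were also taken apart for windows within and beyond 5 Mb of an end, against all other windows of the same group. For the 552 sperm-dense windows farther away they were 2.36 in one-cell embryos, 3.84 in brain and 4.11 in eye. For the 623 near ends they were lower, at 1.59, 2.03 and 2.11. These ratios are not contrasts with neighbouring windows.

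Most sperm-dense windows stood alone. There were 763 isolated windows (64.9%), 130 runs of 2 adjacent windows, 33 of 3, 9 of 4, 1 of 5 and 2 of 6. After a sperm-dense window the next window was also dense in 20.2% of cases, and after any other window in 3.91%. Of the 412 windows in runs of 2 or more, 60.4% lay within 5 Mb of an end, and of the isolated windows 49.0%. Windows in runs were dense in at least 6 of the other lists in 182 cases (44.2%), and isolated ones in 257 (33.7%). Density ratios were here taken against all windows outside each group, including the sperm-dense windows of the other group. They were 3.49 in runs and 3.23 in isolated windows for eye, and 2.22 and 2.12 for one-cell embryos. These ratios are thus not comparable with those over all sperm-dense windows.

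An isolated window has 9 or more sperm peaks and neighbours with fewer than 9, so a drop to the next window is built into the choice, and the profile around these windows is a description. In the isolated window itself the length-scaled mean was 6.95 peaks for one-cell, 8.51 for mbt, 9.77 for 3dpf, 10.3 for eye and 9.78 for brain. In the next window it was 4.90, 5.06, 5.27, 5.31 and 5.16 peaks in these lists, and 500 kb away 4.53, 4.82, 4.96, 5.07 and 4.95. The mean over all windows was 3.39 on this scale.

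**Figure D4:**
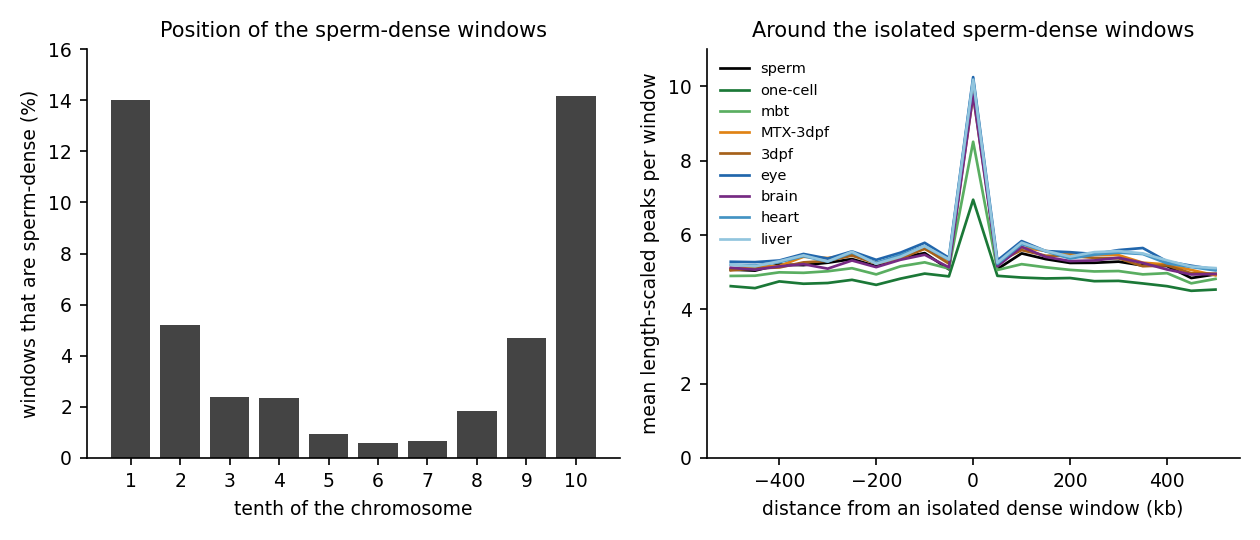
Left, share of windows that are sperm-dense in each of 10 equal parts of the chromosomes, which is 14.01% and 14.2% in the outermost parts and 0.599% in the sixth. Right, mean length-scaled peaks per window against the distance from the 763 isolated sperm-dense windows, by list. All lists have their highest value at 0, where the choice required a high sperm count, from 6.95 in one-cell embryos to 10.3 in eye among the lists not used for it.

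The longest runs lay on chromosomes 3 and 20. Each of the runs at chr3:8500001-8800000 and chr3:58100001-58400000 had 6 windows, or 300 kb. The first held 62 sperm, 79 one-cell, 59 mbt, 60 MTX-3dpf, 67 3dpf, 33 eye, 47 brain, 36 heart and 32 liver peaks. The second held nearly the same numbers, with 63 sperm, 79 one-cell, 70 mbt, 59 MTX-3dpf, 64 3dpf, 34 eye, 49 brain, 37 heart and 37 liver peaks. The run of 5 at chr20:51100001-51350000 held 48 peaks in sperm, 46 in MTX-3dpf, 47 in 3dpf and 19 in eye, and its length-scaled mean was lower in heart, at 6.63 per window, than in sperm, at 9.60. The next runs by length and position were chr3:7750001-7950000, with 41 sperm and 20 eye peaks, and chr5:6850001-7050000, with 40 sperm and 25 eye peaks. Of the 45 runs of 3 or more, on 17 chromosomes, these 5 are the longest with ties taken in chromosome order.

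The single richest window was chr6:45150001-45200000. It held 23 peaks each in sperm, one-cell and mbt, 29 in MTX-3dpf and 30 in 3dpf. The tissues had 12 (eye), 22 (brain), 15 (heart) and 16 (liver). The sperm peaks lay a median of 2186 bp apart with a coefficient of variation of 21.3%, and the brain peaks 2353 bp apart with one of 26.8%. The other lists were less evenly spaced, with a coefficient of 38.1% in one-cell, 35.5% in mbt, 35.4% in 3dpf, 79.8% in MTX-3dpf, and from 62.15% in eye to 64.7% in heart. In chr9:57450001-57500000, the second by sperm count, sperm had 22 peaks, one-cell and mbt 20 each, MTX-3dpf 27, 3dpf 31, eye 18, brain 22, and heart and liver 21 each. This window was the highest of all sperm-dense windows in eye, heart and liver, at length-scaled counts of 38.5, 40.9 and 40.9, and its brain peaks lay 2155 bp apart with a coefficient of variation of 19.7%, the lowest of the 9 lists there, which reached 60.04% in 3dpf. Across sperm-dense windows with 9 sperm peaks the median coefficient of variation of the sperm distances was 77.0%, and in those with 15 or more it was 59.4%.

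The windows ranked 3 and 5 were neighbours on chromosome 1 and formed a block with sharp borders. At chr1:19800001-19850000 sperm had 21 peaks, one-cell 20, mbt 18, MTX-3dpf 25, 3dpf 31, eye 17, brain 23, heart 18 and liver 20. At chr1:19850001-19900000 sperm had 19, one-cell 17, mbt 18, MTX-3dpf 28, 3dpf 28, eye 15, brain 20, heart 17 and liver 17. The window before this block held 1 peak in every list but brain, which had 6, and the window after it held between 0 and 2 peaks in every list.

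The other 6 of the 10 windows with most sperm peaks were also rich in peaks. chr3:38050001-38100000 held 20 peaks in sperm, 21 in brain and 10 in eye, and chr5:58450001-58500000 held 18, 17 and 10. chr6:23900001-23950000 held 18 in sperm, 18 in brain and 15 in eye, and chr25:1950001-2000000 held 18, 13 and 8. At chr7:59800001-59850000, with 19 sperm peaks, the length-scaled counts were 32.1 (eye), 21.3 (brain), 31.2 (heart) and 29.2 (liver), against 8.001 in one-cell embryos, 11.7 in mbt, 12.5 in MTX-3dpf and 13.2 in 3dpf. At chr20:12950001-13000000, also with 19 sperm peaks and dense in all 8 other lists, they were 10.7 (eye), 21.3 (brain), 13.6 (heart) and 9.74 (liver), against 9.60 in one-cell embryos, 10.9 in mbt, 12.5 in MTX-3dpf and 15.1 in 3dpf. With lists of the same length this chromosome 20 window was dense in 4 other lists, and 5 other lists had 9 or more peaks there. Over the 10 windows together, 3dpf had 233 peaks, sperm 197, brain 190 and one-cell embryos 184.

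A few sperm-dense windows held few peaks in most adult tissues. One was chr6:49200001-49250000, which had the most peaks of all sperm-dense windows in both 3-day lists and, with 1 other window, the fewest in eye. Eye had 0 peaks there, brain 2, heart 1 and liver 5, whereas one-cell embryos had 14, mbt 17, and MTX-3dpf and 3dpf 33 each, with 16 in sperm. The liver count was not low for its list, at 9.74 when scaled, the liver median of the sperm-dense windows. The window before it held 0 peaks in every list but one-cell, which had 3, and the window after it held 6 one-cell and 2 mbt peaks and at most 1 in every other list. Its one-cell peaks had a median score percentile of 99.8 within their list, while its 33 peaks in 3dpf had one of 33.4 and lay a median of 1051 bp apart. It still held 10 one-cell, 14 mbt and 6 3dpf peaks with lists of the same length, while eye had 0, brain 2, heart 0 and liver 2. A milder case, chosen after its values were seen, was chr17:3000001-3050000, where eye had 1 peak, brain 3, heart 1 and liver 2, and one-cell, mbt and 3dpf had 14 each.

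In other windows, of the tissues, brain alone had many peaks. The highest brain count of all sperm-dense windows was at chr16:30550001-30600000, with 29 peaks in brain, 1 in eye, 0 in heart and 3 in liver. Sperm had 10 peaks there, one-cell embryos 19, mbt 17, MTX-3dpf 11 and 3dpf 16. The windows on its sides held 2 and 1 brain peaks. With lists of the same length, brain still had 16 peaks there and one-cell embryos 8, and sperm, mbt and both 3-day lists had 0. At chr13:46400001-46450000, 1 of the 3 windows with 0 heart peaks, brain had 11 peaks, eye 0, heart 0 and liver 1, and sperm had 10, one-cell embryos 12, mbt 13, MTX-3dpf 13 and 3dpf 15. The adjoining window chr13:46450001-46500000 repeated this, with 18 peaks in brain, 1 in eye, 0 in heart, 2 in liver and 15 in sperm.

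Both chromosome 13 windows are among the 4 sperm-dense windows with 9 or more brain peaks, at most 1 in eye and in heart and at most 2 in liver, a pattern defined after the values were seen. The 4 are 0.34% of the sperm-dense windows, and the pattern occurred in 36 windows in all (0.144%). The others were chr20:17200001-17250000, with 24 brain peaks, and chr20:24350001-24400000, with 11 brain, 14 sperm, 19 one-cell, 18 mbt, 4 MTX-3dpf and 5 3dpf peaks. At equal list length brain had 8 and 10 peaks in the chromosome 13 windows, but 4 and 1 in those on chromosome 20, where the brain peaks had median score percentiles of 25.2 and 11.7. In the chromosome 13 windows sperm then had 1 and 2 peaks, one-cell 4 and 1, mbt 2 and 2, MTX-3dpf 2 and 2, and 3dpf 0 and 2. In those on chromosome 20 sperm had 3 and 2, one-cell 1 and 8, mbt 0 and 3, MTX-3dpf 1 and 1, and 3dpf 1 and 1. Over the sperm-dense windows, brain had a higher length-scaled count than eye, heart and liver in 342 (29.1%, against 32.4% of all windows) and a lower one in 531 (45.2%, against 37.9%). Brain is also the tissue sequenced in both lanes, and the part of the lanes in these windows was not tested.

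**Figure D5:**
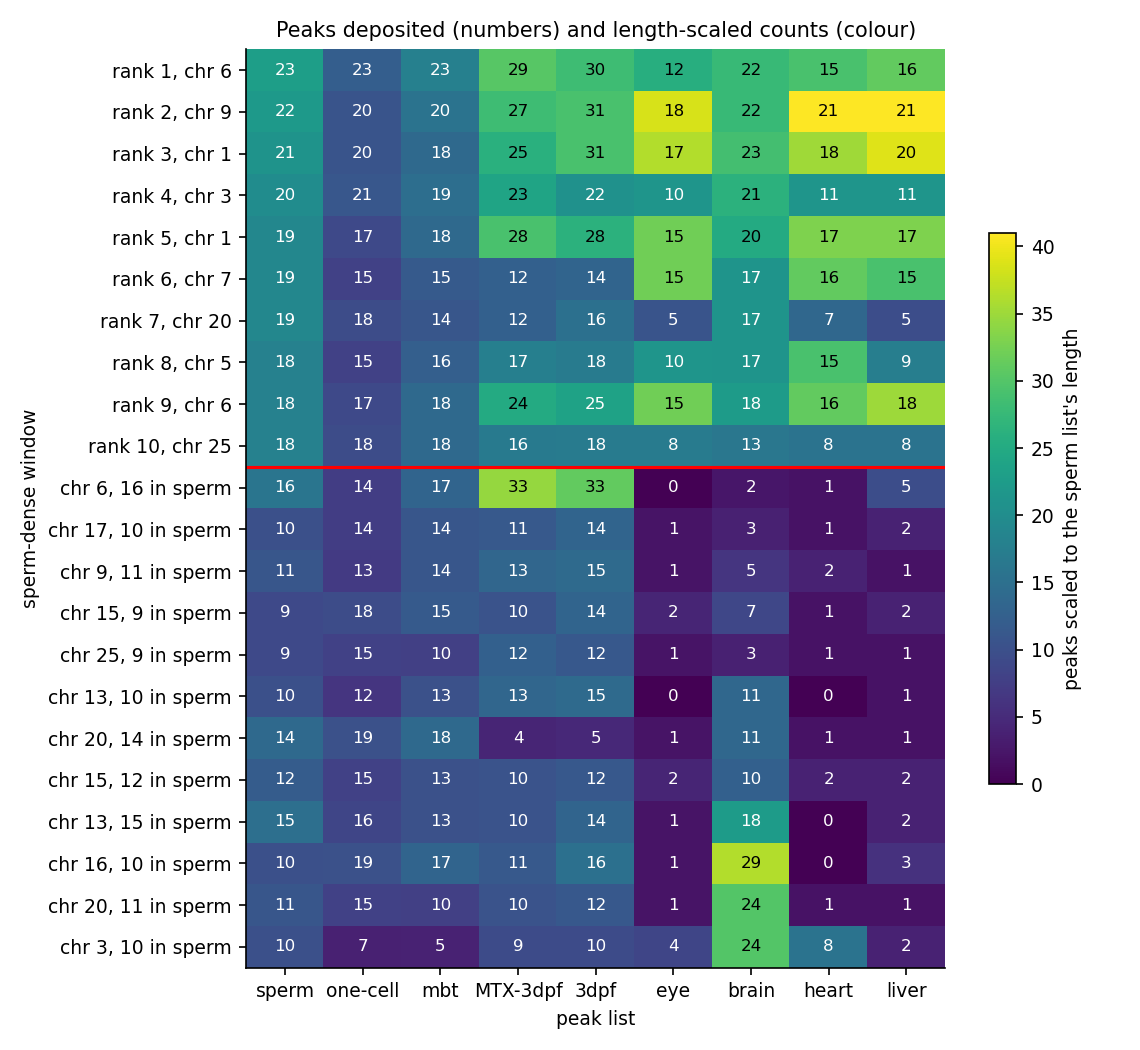
Peaks in single sperm-dense windows by list, as deposited (numbers) and scaled to the length of the sperm list (colour). Above the red line are the 10 windows with most sperm peaks, and below it the windows with the largest deficit in adult tissues or the largest excess in brain, a selection made after their values were seen. The 33 peaks of MTX-3dpf and of 3dpf at the first chromosome 6 window below the line stand against 0 in eye, and the 29 brain peaks on chromosome 16 against 0 in heart.

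Windows at the low end in the other lists were also named. chr6:24750001-24800000, with 9 sperm peaks, had the fewest peaks in 4 lists, with 1 in one-cell embryos, 2 in mbt, 1 in MTX-3dpf and 1 in 3dpf, and it had 1 each in eye, heart and liver and 5 in brain. chr10:40850001-40900000 had the fewest in liver, with 0 peaks, against 10 in sperm and 14 in one-cell embryos, and chr2:57650001-57700000 was 1 of the 2 with the fewest in brain, with 2 peaks, against 9 in sperm and 20 in one-cell embryos. These counts depend on list length. With lists of the same length, the chromosome 6 window held 0 peaks in sperm and 5 in brain. The chromosome 10 window then held 6 in sperm, 2 in one-cell embryos and 0 in liver. In the chromosome 2 window sperm, one-cell embryos and eye then had 3 each and brain 2. In the full lists, no peak at all was listed in 2 sperm-dense windows in eye, 3 in heart and 1 in liver, and in 0 sperm-dense windows in each of the other lists. Of all windows, 30.25% held no eye peak, 27.15% no heart peak and 27.3% no liver peak. In the other lists this share of all windows ran from 2.21% (one-cell) to 14.2% (brain). The highest one-cell count, 27, was at chr17:51550001-51600000, where sperm had 14 peaks, mbt 15, 3dpf 17, eye 10 and liver 7.

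MTX-3dpf had fewer peaks than 3dpf both inside and outside these windows. The paper lists fewer properly paired unique reads for MTX-3dpf than for 3dpf, though more total reads, and the part of depth was not tested. The sperm-dense windows held 11487 peaks in MTX-3dpf and 12524 in 3dpf, which is 8.28% fewer, and outside the windows MTX-3dpf had 9.89% fewer peaks. Per window MTX-3dpf averaged 9.78 and 3dpf 10.7 peaks, and 1018 of the 1175 windows differed by at most 2 peaks (86.6%, against 97.4% of all windows). In counts as deposited, MTX-3dpf was below 3dpf in 682 windows (58.0%, against 33.2% of all windows). Counts were equal in 330 (28.1%, against 57.7%) and higher in MTX-3dpf in 163 (13.9%, against 9.12%). Relative to list length, MTX-3dpf was above 3dpf in 652 windows (55.5%, against 57.7% of all windows). It was below 3dpf in 523 (44.5%, against 32.3% of all windows). Because the MTX-3dpf list is shorter, scaling turns equal counts in a sperm-dense window into a higher value for MTX-3dpf. The scaled split is therefore no measure of a relative gain. Of the MTX-3dpf peaks in the windows 93.1% overlapped a 3dpf peak (92.6 to 93.5%), and of the 3dpf peaks there 85.4% overlapped an MTX-3dpf peak.

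On length-scaled counts, the largest loss was at chr19:1-50000, at the start of the chromosome, with 6 peaks in MTX-3dpf and 12 in 3dpf, and 10 in sperm, 13 in mbt, 4 in eye and 6 in brain. The largest gain on this scale was at chr1:44550001-44600000, with 21 peaks in MTX-3dpf and 18 in 3dpf, and 15 in sperm, 15 in mbt, 8 in eye and 16 in brain. With lists of the same length the chromosome 19 window had 4 peaks in MTX-3dpf and 6 in 3dpf. The chromosome 1 window then had 5 in each. In counts as deposited, the drop of 6 peaks was shared by 3 windows and the gain of 3 peaks by 6. Each condition has 1 list, so neither difference could be set against replicates.

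Within the 1175 windows, the order of the windows by count was most alike between lists of related samples. Spearman's rho across windows was 0.90 between heart and liver, 0.89 between eye and heart and 0.83 between MTX-3dpf and 3dpf. With sperm it was 0.55 for mbt, 0.51 for 3dpf, 0.49 for brain, 0.41 for one-cell embryos and 0.34 for eye. Windows are not replicates, the sperm counts were restricted by the rule, and eye, heart and liver share a lane and a control library, so these values are a description.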

How the data were processed

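The authors enriched methylated DNA by MBD capture, aligned reads to Zv9 with BWA 0.5.8c, kept properly paired reads and called peaks with MACS2 2.0.10.20120703 against methylation-poor libraries. The deposited lists hold intervals reaching 100 bp to each side of a peak centre and a score whose unit is not given in the sources used here. It was used only within a list. The members and the lists compared were chosen with earlier results of these data known. Named windows were the 10 with most sperm peaks, the 5 longest runs, the highest and lowest window of each other list, and the largest gain and loss with methotrexate, with ties taken by position.

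Peaks were counted by centre with Python 3.11.15, NumPy 2.4.6, pandas 2.3.3 and SciPy 1.17.1. Chromosome length was taken as the largest peak end, a lower bound. Overlap meant at least 1 bp. Lists were compared by exact permutation tests, and shares by Wilson 95% intervals. The functions were tested on simulated lists, where 8 of 8 checks recovered the built-in values. Alternatives were other window starts, sizes and minimums, chromosomes, score filters, equal list lengths and lists left out. Sequences and genes were not analysed here, because no Zv9 genome or annotation was used.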

Additional observations from a re-analysis of the deposited data

Results flagged for a closer look

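Over the 4 adult tissues, 13 values were examined with Dixon's criterion at its 95% critical value, and 4 were set apart, each by brain. Chance passes the criterion in about 1 of 20 independent groups, but all 13 groups rest on the same 4 lists. The number set apart can therefore not be compared with that rate. The log2 density ratio of brain was 1.71, below the other tissues. The share of sperm peaks in the windows that brain overlapped was 67.1%, above the others. The length-scaled count of brain was 26.3 at chr3:38050001-38100000, above the others, and 25.1 at chr1:19850001-19900000, below them. With lists of the same length the density ratio of brain was 3.52, against 3.51 in eye, 3.46 in heart and 3.47 in liver. The density ratio and the overlap share passed the criterion only narrowly. Brain was also sequenced in both lanes, whereas eye, heart and liver share a lane and a control library. The brain list is longer as well, with 67776 peaks against 39716 in eye, 43542 in heart and 43582 in liver. A longer list can overlap more sperm peaks. The parts of lane, control and list length in the 4 values set apart were not tested. On the chromosomes that the rule left out, 56 windows on chromosome 4 (4.51% of its windows) and 86 on chromosome 22 (10.17%) held 9 or more sperm peaks, and all 8 other lists were denser inside these windows than outside them on the same chromosome, by 2.92 to 5.12 times on chromosome 4 and by 2.01 to 3.11 times on chromosome 22.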

How the results depend on the processing

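The median density ratio stayed above 1 with the test passed in all 19 alternatives, between 2.44 and 3.94 (p between 0.00781 and 0.0156, two-sided exact sign-flip permutation test), and between 3.29 and 3.35 with 1 list left out. Each of these p values is the smallest that its number of lists allows. The lists are not independent, so passing the test in each alternative adds no support. The difference between embryo stages and adult tissues kept its sign in 17 of 18 alternatives, between −0.47 and −0.19 with 1 sample left out, and was 0.043 with lists of the same length (exact permutation test, p = 0.286). No alternative brought its p below 0.0571. The number of sperm-dense windows was 1990 at a minimum of 8, 677 at a minimum of 10, 281 with 100-kb windows and 1834 when a list kept its upper part by score, from the median on, while 897, 157, 73 and 761 of these were in runs. In 100-kb windows 61.9% lay within 5 Mb of an end. The median share of windows dense in another list, 59.5%, was 56.5% with lists of the same length, 51.4% at 9 peaks in any list, 48.5% among as many top windows of each list, and between 55.3% and 63.6% with 1 list left out. The share of sperm peaks found in all 8 other lists was 22.9% at an overlap of 100 bp and 39.3% with centres within 1000 bp. Apart from the construction of an alternative, the cause of a change was not tested. Merging found no overlapping intervals. The distance-matched ratio and the class counts with samples left out were chosen after seeing the data. No paired analysis was possible because each condition has 1 list. Peaks in a list depend on read depth and on the score at which a list ends, and short lists limit what a window of 50 kb can show in eye, heart and liver.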
